A study of Mus musculus with 8 samples.

Results

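The ETS factors are a family of transcription factors that share a DNA-binding domain, the ETS domain, which reads a short GGAA core. Members differ in what surrounds that domain: some are held inactive until a partner binds, some work only beside serum response factor at growth-responsive genes, and some are repressors. In lymphocytes they act at promoters and enhancers of antigen receptor, cytokine receptor and cytokine genes, often next to RUNX factors. Here 10 of them, out of 24421 gene symbols, were followed in CD4+ T cells from inflamed joints: Ets1, Fli1, Elf1, Elf2, Elf4, Gabpa, Etv3, Etv6, Elk3 and Elk4. The members were matched by symbol and all 10 were found. They were chosen from the family with the levels and genotype differences of these same libraries already known, so the comparison of the genotypes is given as a description, and no p-value is attached to a member as support.

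The cells were taken by CD4 sort from knees of 16-week-old males in which antigen-induced arthritis, a joint inflammation driven by a primed response to antigen, had been set off; the knees were digested with enzymes. One group of 4 libraries was labelled wild type and the other group of 4 Slc7a5 knockout, and arthritis, sex, age and sort were the same in both. Slc7a5 encodes the light chain of an amino acid transporter of activated T cells, and the comparison asks which transcripts differ in joint T cells that lack it. The labels name no deleted exon, no Cre driver and no strain, and they leave unsaid whether the 4 libraries of a group are 4 animals, so the spread seen between them may be technical, and p-values measure that spread only.

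The libraries held 18837650 to 36436923 counts, and 5221 to 10139 genes had a count. The counts of Slc7a5 itself were 385, 194, 410 and 0 across the wild-type replicates in order, and 0 in each knockout library, so this gene does not check the label of wild-type replicate 4. The 0 counts in knockout are a limited check as well. Genes tested that were at 0 made up 15.3% in wild-type replicate 4 and 6.50% to 43.7% in the knockout libraries. Knockout replicate 4 stood apart: its Spearman correlation across genes with the other libraries was 0.489 to 0.544, and 43.7% of the 8489 genes tested were at 0 counts in it, against 2.86% to 19.3% in the other 7. Cd4, the marker of the sort, had 34 counts (1.78 CPM, counts per 1000000 counts of the scaled library) there and 344 to 570 CPM in the other 7, while Cd3e was at 382 CPM and Cd8b1 at 123 CPM, with Cd8a at 0. The library labelled knockout replicate 4 thus goes against its sort label at this gene, and member differences that rest on it are also given without it. Transcripts of the T cell marker list summed to 8753 to 11662 CPM in wild type and 7276 to 9217 CPM in knockout, over the 10 of 13 markers among the symbols. The monocyte, macrophage and dendritic cell list summed to 1245 to 3027 CPM and 1953 to 10891 CPM, with 13 of its 15 genes detected and its markers Adgre1 and Fcgr1 at 0 in every library. Cd74 and the MHC class II chains made up most of that sum, with Cd74 at 1172 ± 532 and 4837 ± 2526 CPM and H2-Ab1 at 290 ± 210 and 2071 ± 1222 CPM (SD, n = 4 each). Other detected markers of the same list were low and went both ways. Lyz2 (23.7 ± 1.76 and 6.47 ± 12.7 CPM) and Cd14 (23.4 ± 15.7 and 5.61 ± 11.1 CPM) were lower on average in knockout. So were Itgam, Itgax, Spi1 and C1qb, each without a count in some wild-type libraries. Itgam had 595 and 59 counts in wild-type replicates 1 and 2, Itgax 713 in replicate 1, and both 0 in the other libraries. Cd68 (31.6 ± 11.8 and 40.7 ± 22.1 CPM), C1qa and Csf1r were higher on average in knockout. Csf1r had 797 and 550 counts in knockout replicates 2 and 3, 1 in replicate 4 and 0 in the other libraries. In that list 5 of the 7 tested genes had higher and 2 lower estimates. Their median log2 fold change, knockout minus wild type, was 2.05 (1.75 without knockout replicate 4), against -0.12 over all genes tested. In edgeR 0 passed, and 4 lay at an unadjusted p under 0.05, all higher, beside 1.87% of all genes in that direction. Of 10 genes given an adjusted p, DESeq2 called H2-Ab1 and Csf1r higher and Itgam lower, beside 3.63% of all genes. Whether other cells contributed to any value below was not tested, and in sorted bulk RNA fewer cells of a type and less RNA per cell cannot be told apart.

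Ets1 was by far the most abundant member. Ets1 lies on chromosome 9 from 32636241 to 32757820 (GRCm38.p6, the coordinates of mm10) and encodes a lymphocyte factor whose DNA binding is restrained by flanking helices and by calcium-dependent phosphorylation. It ranked between 9th and 25th of all genes by CPM in each library. Its level was 3024, 3357, 3103 and 4639 CPM in wild-type replicates 1 to 4 and 4937, 7006, 5437 and 3479 CPM in knockout replicates 1 to 4. Knockout replicates 1 to 3 lay above every wild-type library, while knockout replicate 4 lay within the wild-type range, so the groups overlapped. The means were 3531 ± 753 CPM and 5215 ± 1455 CPM (SD, n = 4 each), and the fitted log2 fold change, knockout minus wild type, was 0.56 (SE 0.22). It was 0.70 without knockout replicate 4. In the T cell marker list 9 of the 10 tested genes had lower estimates (7 with an offset for transcript GC content). Their median log2 fold change was -0.38 (-0.25 with the offset), against -0.12 over all 8489 genes tested, 4672 of them lower. Of the 10, 0 passed in edgeR or DESeq2. In edgeR 3 lay at an unadjusted p under 0.05 (1 higher, 2 lower), beside 3.84% of all genes.

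Both libraries numbered 4 sat away from their own genotype for Ets1. Wild-type replicate 4 was the highest of its group and knockout replicate 4 the lowest. Leaving out these libraries, the ones nearest to the other genotype, had to widen the gap. The other wild-type libraries spanned 3024 to 3357 CPM and the other knockout libraries 4937 to 7006 CPM, and the log2 fold change was 0.86 (SE 0.18). In this set of 6, whose left-out libraries were not picked on those genes, 5.64% of the genes tested had all knockout libraries above all wild-type libraries and 9.90% had them all below, so nothing is read from the separation of Ets1. Without knockout replicate 2, which held the highest level, the log2 fold change of Ets1 was 0.36.

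Fli1 is the neighbour of Ets1 in the genome, from 32422204 to 32543432 on chromosome 9, with 92808 bases and no protein-coding gene between them. It encodes an ETS factor of blood and endothelial cells. Fli1 stood at 207, 352, 316 and 173 CPM in the wild-type group and 280, 452, 412 and 484 CPM in knockout. Knockout replicates 2 to 4 lay above all wild-type libraries and replicate 1 within their range. The means were 262 ± 85.4 and 407 ± 89.8 CPM (SD, n = 4 each), with a log2 fold change of 0.64 (SE 0.31). That estimate was 0.37 with the GC offset, 0.38 in limma voom and 0.37 without both libraries numbered 4. The ratio of Ets1 to Fli1 counts was not constant, and ran from 7.19 in knockout replicate 4 to 26.8 in wild-type replicate 4. Those libraries are the ones in which the neighbours diverged, since Fli1 was at its highest where Ets1 was low among knockouts and at its lowest where Ets1 was high among wild types.

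Elf1, which has known sites in the Il2ra and Cd4 regulatory regions, lies on chromosome 14 from 79481174 to 79582491. It stood at 139, 166, 250 and 191 CPM in the wild-type group and 169, 111, 330 and 443 CPM in knockout. Knockout libraries held both the lowest and the highest values of the 8, and the means were 186 ± 47.3 and 263 ± 152 CPM (SD, n = 4 each). The log2 fold change was 0.50 (SE 0.44), 0.29 with the GC offset or in limma voom, and 0.11 without knockout replicate 4. Elf1 overlaps Wbp4 on the opposite strand, which was at 72.1 ± 24.1 and 56.8 ± 39.9 CPM, and because the strand setting of the counting is not given, reads in the shared stretch cannot be told apart.

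**Figure D1:**
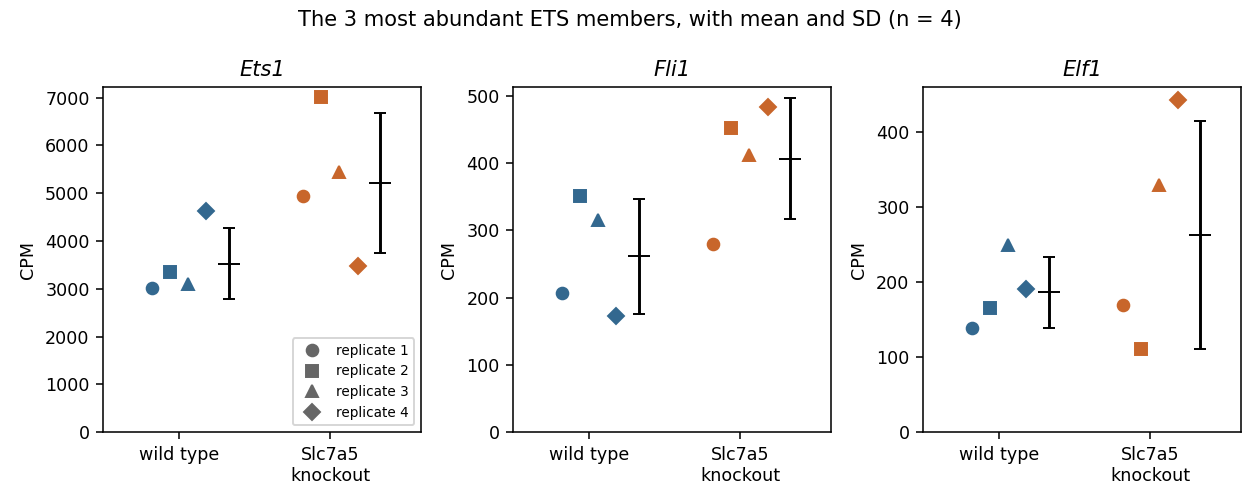
CPM (y axis, from 0) of Ets1, Fli1 and Elf1 in each of the 4 wild-type and 4 knockout libraries, with a symbol per replicate number and the mean and SD of each group in black. Ets1 in knockout replicate 4 (3479 CPM) falls among the wild-type libraries, while Fli1 (484 CPM) and Elf1 (443 CPM) are highest in that same library.

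Gabpa and Elk4 were the members with the letters of an extended ETS site in the searched promoter window. The searched letters were CCGGAAG on either strand, an extended form of the GGAA core, in the 250 bases before the most upstream start that the RefSeq promoter table lists (GRCm38.p6). That start can lie inside the bounds of the gene, and the window reached into those bounds in 5 of the 8 members matched. A promoter was matched for 8 of the members; Ets1 and Fli1 were not matched. These letters were present in 2 of the 8 (25%) and in 1911 of 27025 genes (7.07%). The matches are shown because they are the kind of sequence these proteins bind, with the searched letters in capitals and 11 bases on each side, on the strand of the gene:
Gabpa, chr16:84835020-84835048: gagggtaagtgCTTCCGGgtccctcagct
Elk4, chr1:132007541-132007569: cggcccctcccCCGGAAGtgacgctcgcg
The match for Gabpa, on the opposite strand, began 93 bases before the listed start at 84835124, and lay 140 bases inside the bounds of the gene. The match for Elk4, on the same strand, began 68 bases before the listed start at 132007620, and lay 25 bases before the bounds of the gene. The sequences describe letters in a window, and binding was not measured here.

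Gabpa, on chromosome 16 from 84834891 to 84863783, encodes the DNA-binding subunit of GABP, a factor of mitochondrial and housekeeping promoters that pairs with the product of Gabpb1 or Gabpb2. Its level was 40.9, 68.9, 44.6 and 47.5 CPM in the wild-type group and 42.7, 48.7, 51.8 and 377 CPM in knockout. Of the knockout libraries, 3 lay within the wild-type range and replicate 4 was far above all others. The log2 fold change was 1.37 (SE 0.85) with that library, -0.092 without it and 0.0065 in limma voom. Gabpa overlaps Atp5j on the opposite strand, so their reads in the shared stretch cannot be told apart. Atp5j was at 181, 207, 235 and 123 CPM in the wild-type group and 250, 94.8, 193 and 478 CPM in knockout, so its highest value was in the same library as that of Gabpa.

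The partner Gabpb1 stood at 100 ± 39.9 CPM in the wild-type group and 134 ± 69.1 CPM in knockout, with 225 CPM in knockout replicate 4, the highest of the 8 libraries. Of 9 tested genes known as GABP targets, 2 had higher and 7 lower estimates and 0 passed in edgeR (0 at an unadjusted p under 0.05, and 0 in DESeq2), with a median log2 fold change of -0.02 against -0.12 over all genes tested; under RLE scaling 5 were higher and 4 lower (median 0.03), and without knockout replicate 4 the median was -0.26. Atp5b, an ATP synthase subunit, was at 329 ± 89.4 and 326 ± 150 CPM, with 532 CPM in knockout replicate 4. Cox4i1 and Cox5b, subunits of cytochrome oxidase, were at 289 ± 23.6 and 214 ± 100.4 CPM, and at 188 ± 48.4 and 168 ± 39.4 CPM, with 356 and 163 CPM in knockout replicate 4. Il7r, the interleukin 7 receptor chain that GABP is known to regulate in T cells, was at 283 ± 68.2 and 468 ± 302 CPM, with 882 CPM in knockout replicate 4. Knockout replicate 4 was the highest library for 6 of the 9 targets (Tfam, Cox4i1, Cox6c, Atp5b, Sdhd and Il7r), as for Gabpa and Gabpb1, and for 18.3% of all genes tested. That share is low as a measure for detected genes. It counts the 43.7% of tested genes at 0 in this library, Tfb2m among the targets, which cannot be highest there. This library is the one with almost no Cd4, and the part of its composition in these levels was not tested.

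Etv3 and Etv6 encode repressors. Etv3, on chromosome 3 from 87525577 to 87540158, stood at 38.4, 30.9, 15.6 and 54.8 CPM in the wild-type group and 26.2, 74.1, 23.1 and 222 CPM in knockout. As for Gabpa, its top value was in knockout replicate 4, and the log2 fold change of 1.31 (SE 1.07) was 0.22 without it and 0.19 in limma voom. Etv6, on chromosome 6 from 134035700 to 134270158, forms oligomers through its pointed domain and is required for blood stem cells. It stood at 72.1, 51.8, 89.3 and 31.1 CPM in the wild-type group and 61.2, 27.6, 27.0 and 0.209 CPM in knockout. Its knockout values reached below every wild-type library in replicates 2 to 4, and the last of them was 4 counts. The means were 61.1 ± 25.2 and 29.0 ± 25.0 CPM (SD, n = 4 each), with a log2 fold change of -1.07 (SE 1.40), -0.68 without knockout replicate 4 and -1.74 without knockout replicate 1.

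Elk3 and Elk4 are ternary complex factors, which sit beside serum response factor and are switched by MAP kinases. Elk3, on chromosome 10 from 93247415 to 93311159, stood at 102, 110, 69.0 and 216 CPM in the wild-type group and 20.2, 0, 87.1 and 111 CPM in knockout. It was absent from the counts of knockout replicate 2, where 3 counts would have been 0.167 CPM, and at its highest in wild-type replicate 4. The log2 fold change was -1.19 (SE 1.35), -0.78 without wild-type replicate 4, -0.80 without knockout replicate 2 and -1.80 without knockout replicate 4. Elk3 overlaps Cdk17, which was at 86.7 ± 31.1 and 147 ± 102 CPM, so reads in the shared stretch cannot be told apart.

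Elk4, on chromosome 1 from 132007577 to 132026448, was the least abundant member per kilobase of the longest transcript in wild type and the 7th of the 10 by median transcript length, with a range that overlapped its neighbour's. It overlaps Mfsd4a on the opposite strand, listed in the counts under its older symbol Mfsd4, with 35 counts at most in a library. It stood at 11.5, 12.8, 31.5 and 0.0883 CPM in the wild-type group, the last from 2 counts, and at 8.13, 67.6, 0 and 0 CPM in knockout. A single knockout library held most of the knockout counts, and the log2 fold change of 0.44 (SE 2.47) became -2.39 without knockout replicate 2 and 0.83 without knockout replicate 4. Elk3 and Elk4 took opposite places in that library, with Elk3 at 0 and Elk4 at its highest.

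Genes known as targets of the ternary complex factors with serum response factor had lower estimates in knockout, negative log2 fold changes in all 10 tested (median -0.73, against -0.12 over all genes), with 9 of the 10 negative under RLE scaling and 8 of the 10 with an offset for transcript GC content (median -0.43). Without knockout replicate 4, 9 of the 10 were lower (median -0.74). In edgeR 0 of them passed over all genes, and 3 lay at an unadjusted p under 0.05, all lower, beside 1.97% of all genes in that direction. DESeq2 called 0, beside 1.43% of the genes of the edgeR filter to which it gave an adjusted p. Nr4a1, an orphan receptor of early antigen response, was at 3911 ± 985 CPM in the wild-type group and 1741 ± 742 CPM in knockout. Ier2, an immediate early gene, was at 888 ± 44.7 and 537 ± 163 CPM, and Junb, an AP-1 subunit, at 2162 ± 928 and 939 ± 536 CPM. Fos, the classical target, was at 489 ± 171 and 320 ± 97.6 CPM. The groups did not overlap for 2 of the 10, Nr4a1 and Ier2, where knockout lay below wild type in all libraries. Of all genes tested, 4.62% did the same. With the GC offset the log2 fold change of Ier2 went from -0.73 (SE 0.24) to -0.26 (SE 0.28). That of Nr4a1 went from -1.17 (SE 0.29) to -0.85 (SE 0.25).

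Elf2 and Elf4 are relatives of Elf1. Elf4, on the X chromosome from 48411049 to 48463132, is known for holding T cells quiescent and for natural killer cell function. It stood at 56.3, 26.5, 32.5 and 11.3 CPM in the wild-type group and 85.6, 54.6, 17.6 and 0 CPM in knockout, so the knockout libraries held both extremes. The log2 fold change of 0.32 (SE 1.72) was -0.39 without knockout replicate 1, 0.71 without knockout replicate 4 and 0.75 without wild-type replicate 1. Elf2, on chromosome 3 from 51252720 to 51340683, stood at 33.6, 7.15, 34.5 and 11.1 CPM in the wild-type group and 11.96, 0.111, 59.9 and 0 CPM in knockout. In replicate 2 of the knockout those were 2 counts. Its log2 fold change of -0.26 (SE 2.11) turned to 0.13 without knockout replicate 4 and was -2.42 without knockout replicate 3.

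**Figure D2:**
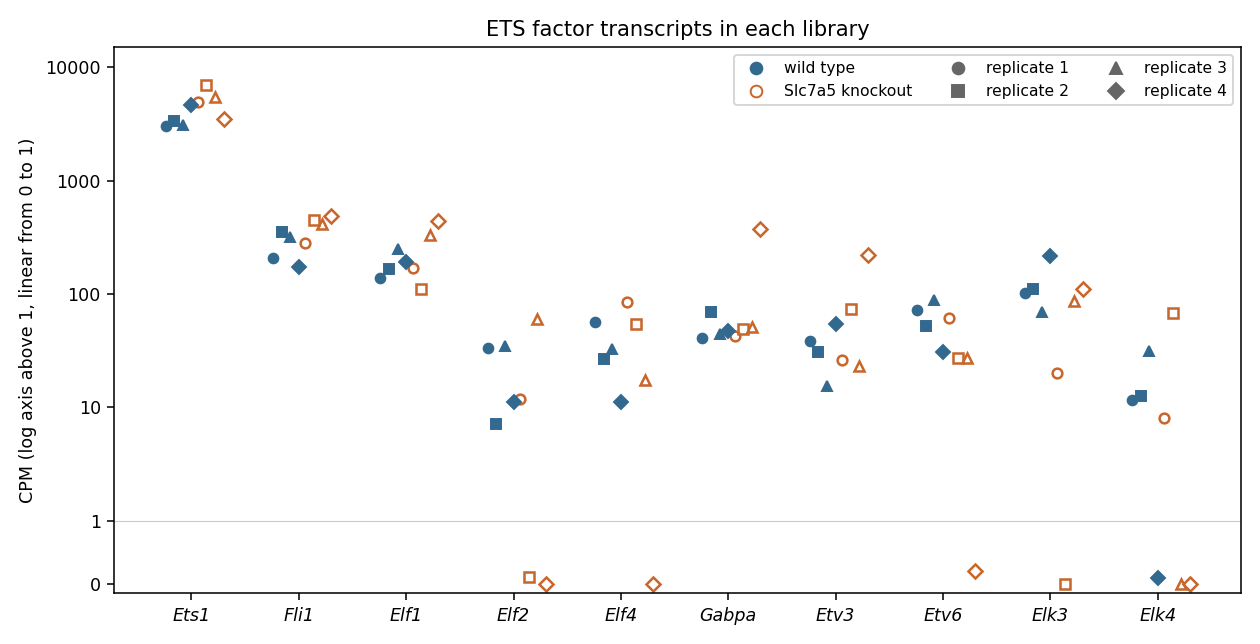
CPM of the 10 members (y axis, logarithmic above 1 and linear from 0 to 1) in each library, with filled blue symbols for wild type, open orange symbols for knockout and a shape per replicate number. Ets1 lies at or above 3024 CPM in every library, while the 8 values at or below 1 CPM belong to Elf2, Elf4, Etv6, Elk3 and Elk4, and 7 of these 8 are knockout libraries.

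Compared per kilobase of the longest annotated transcript, the wild-type order was Ets1 (695 ± 148 CPM per kilobase), Fli1 (78.9 ± 25.7), Elf1 (44.0 ± 11.2), Elk3 (29.5 ± 15.1), Etv6 (10.7 ± 4.41), Gabpa (10.1 ± 2.53), Etv3 (6.58 ± 3.07), Elf4 (5.20 ± 3.07), Elf2 (3.65 ± 2.45) and Elk4 (3.15 ± 2.93). Only 2 steps in that order separated neighbours whose ranges over the 4 libraries did not overlap, Ets1 above Fli1 and Elk3 above Etv6. With the median transcript length in place of the longest, Ets1 and Fli1 kept their places, Elk3 moved above Elf1, and the order among the lower 6 changed. On the per-kilobase scale Ets1 made up 73.9% to 83.7% of the members' sum in wild type and 63.5% to 86.5% in knockout, lowest in knockout replicate 4. The other 9 members together summed to 700 to 882 CPM in the wild-type group and 705 to 1638 CPM in knockout, and it was again replicate 4 that held the highest sum.

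Ets1 varied little within a genotype, beside all genes of at least 50 CPM. Its SD of log2 CPM within a genotype was 0.36, which 11.4% of the 2775 genes with a mean of at least 50 CPM and a count in all 8 libraries undercut. For Fli1 the SD was 0.43 (percentile 18.3), for Elf1 0.69 (49.0), for Gabpa 1.08 (71.7) and for Etv3 1.20 (75.7). Genes were not matched for level, and among these members the SD rose as the mean CPM fell. The percentile of Ets1 thus does not say whether it was steady for its level. The remaining 5 members were not in that comparison, because they were at 0 in some library or below the mean.

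Missing transcripts followed the libraries. Fewer than 10 counts were found for 0 members in wild-type replicates 1 to 3 and in knockout replicate 1, for 1 in wild-type replicate 4 and in knockout replicate 3, for 2 in knockout replicate 2 and for 4 in knockout replicate 4. Among all genes tested the share under 10 counts was 4.04% to 4.70% in the first 3 wild-type libraries, 19.3% in wild-type replicate 4, and 15.6%, 27.8%, 9.05% and 55.0% in knockout replicates 1 to 4. The library with the most genes missing had the most members missing, although knockout replicate 1 lacked more genes than replicate 3 and no member. In knockout replicate 4 the members were Elf2, Elf4, Etv6 and Elk4. A value of 0 there allows up to 0.157 CPM by counting error alone (3 counts), which does not cover loss of a transcript before amplification.

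**Figure D3:**
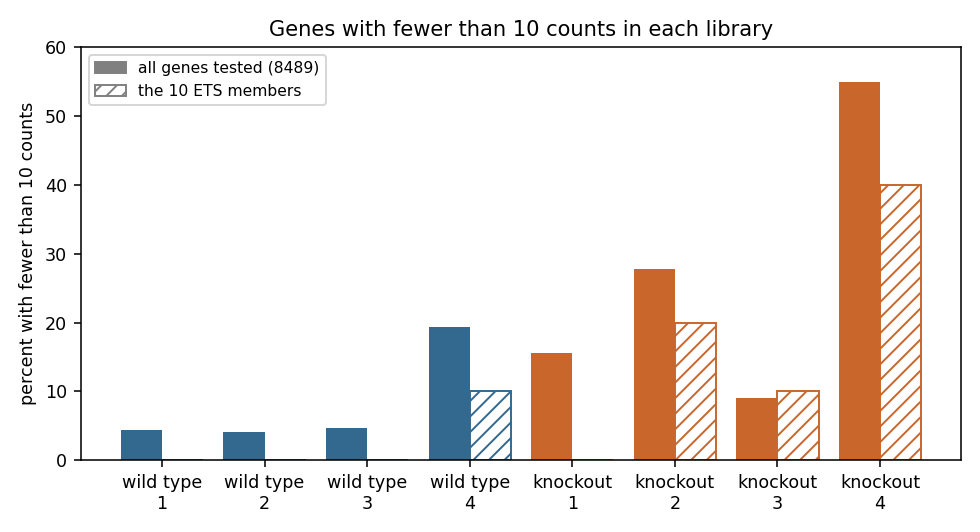
Percent of genes with fewer than 10 counts (y axis) in each library, with filled bars for the 8489 genes tested and hatched bars for the 10 members, blue for wild type and orange for knockout. Knockout replicate 4 is highest for both, at 55.0% of all genes and 4 of the 10 members.

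Across the members, 7 estimates were higher and 3 lower in knockout, also under the 3 other scalings tried, with a median log2 fold change of 0.47 against -0.12 over the 8489 genes tested. Without knockout replicate 4 the count was again 7 and 3, with Elf2 then higher and Gabpa lower, and the median was 0.18 against -0.07. In limma voom and with the replicate number as a block 5 were higher. All 10 passed the filter on low counts. By the quasi-likelihood test of edgeR, adjusted by Benjamini-Hochberg over all genes, 0 members passed, as did 0% of all genes. At an unadjusted p under 0.05 there was 1 member, Ets1, beside 3.84% of all genes. DESeq2 called 0 of the 9 members to which it gave an adjusted p, beside 1.43% of the genes that passed the same filter and 3.63% of all genes to which it gave one. For 0 members did all knockout libraries lie above all wild-type libraries, beside 1.52% of all genes, and for 0 did they all lie below. Since the members were chosen on these libraries, nothing is read from these counts.

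**Figure D4:**
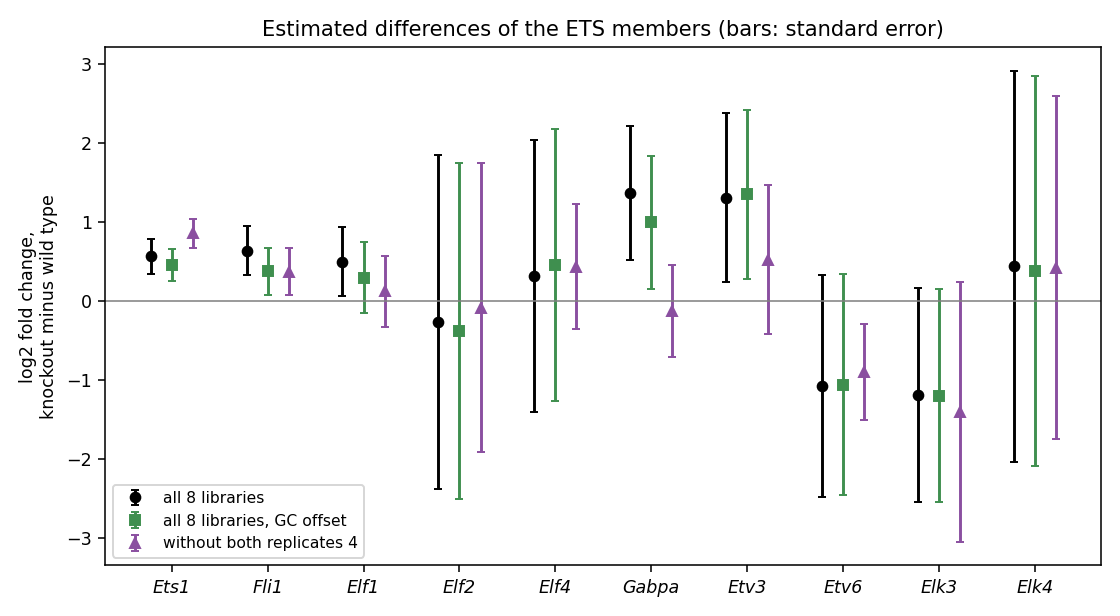
Log2 fold change, knockout minus wild type (y axis), of each member with its standard error as a bar, from all 8 libraries (black circles), with an offset for GC content (green squares) and without both libraries numbered 4 (purple triangles). Ets1 has the smallest errors and stays positive at 0.46 to 0.86, while Gabpa falls from 1.37 to -0.12 without those libraries.

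Of the 17 other genes of the family, 16 were among the symbols, and 9 of them had 0 counts in every library: Erg, Fev, Etv1, Etv2, Elf3, Elf5, Ehf, Spic and Spdef. Erg marks endothelium, and Spic is a factor of iron-recycling macrophages. Spi1, the master factor of myeloid cells, had 75 counts in wild-type replicate 3 and 0 in the other 7 libraries. Of the genes tested, 11.7%, 19.3% and 43.7% were at 0 in knockout replicates 1, 2 and 4. A value of 0 for a low gene thus says little there. Which cells gave the MHC class II transcripts was not tested. Spib, a B cell and plasmacytoid dendritic cell factor, had 2, 6, 269 and 0 counts in wild type and 0 in each knockout library. Only Ets2 and Etv5 had a mean of at least 5 CPM. Ets2, the closest relative of Ets1, stood at 37.5, 14.0, 60.5 and 15.3 CPM in the wild-type group and 0.0421, 0, 21.0 and 18.7 CPM in knockout, with a log2 fold change of -1.68 (SE 2.11). Etv5, a factor of the PEA3 group, was at 9.53, 0, 2.31 and 59.996 CPM in the wild-type group and at 0, 0, 0.996 and 0 CPM in knockout. Both had lower estimates, and 0 of the 2 passed in edgeR (0 at an unadjusted p under 0.05, and 0 in DESeq2).

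Among 22 tested partners and regulators, 8 had higher and 14 lower estimates (median -0.38, and -0.096 with the GC offset, against -0.12 over all genes), or 10 and 12 without knockout replicate 4 (median -0.16). In edgeR and DESeq2 0 passed, and 1 of the 22 lay at an unadjusted p under 0.05, higher in knockout, as did 1.87% of all genes in that direction. That gene, named for its mean level as well, was Cbfb, the shared subunit of the RUNX factors that bind beside Ets1. Cbfb was at 117 ± 29.5 CPM in the wild-type group and 214 ± 71.4 CPM in knockout, and the groups overlapped in 1 library, knockout replicate 1 at 147 CPM. Its highest value, 310 CPM, was in knockout replicate 4. The log2 fold change of Cbfb was 0.87 (SE 0.40), and 0.49 (SE 0.40) with the GC offset. Ncor1, a corepressor, was at 247 ± 77.8 and 187 ± 112 CPM. Camk4, a calcium-dependent kinase of T cells, was at 101 ± 23.9 CPM in the wild-type group and at 111, 96.4, 190 and 0 CPM in knockout.

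Of 17 tested T cell genes with a known ETS site in a promoter or enhancer, 4 had higher and 13 lower estimates. Their median was -0.45, and -0.34 with the GC offset, against -0.12 over all genes. Without knockout replicate 4, 5 were higher and 12 lower (median -0.39). In edgeR and DESeq2 0 passed, and 3 lay at an unadjusted p under 0.05 in edgeR (1 higher, 2 lower), beside 3.84% of all genes. All knockout libraries lay below all wild-type libraries for 4 of the 17, beside 4.62% of all genes: Zap70, Cd247, Cd3e and Ifng, named after their values were seen. Zap70, a kinase of the antigen receptor, was at 532 ± 121 and 226 ± 92.5 CPM, and Cd247, the zeta chain of that receptor, at 469 ± 77.3 and 264 ± 66.2 CPM; they are the 2 lower genes at an unadjusted p under 0.05. Il2ra, the alpha chain of the interleukin 2 receptor, was at 371, 652, 826 and 1354 CPM in the wild-type group and 1328, 1113, 1148 and 1897 CPM in knockout. All knockout libraries exceeded wild-type replicates 1 to 3, and knockout replicate 4 alone exceeded wild-type replicate 4. Lck, the kinase of the antigen receptor, was at 2036 ± 355 and 1809 ± 352 CPM, Gata3, the Th2 regulator, at 1174 ± 301 and 1129 ± 348 CPM, and Gzmb, granzyme B, at 480 ± 171 and 491 ± 249 CPM.

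The genes whose profile over the 8 libraries was nearest to that of Ets1 were Ccr2, Cd53, Ppp2r5c, Adam10 and Elmo1. Likeness was the root-mean-square difference between log2 CPM profiles, each centred on its own mean, among the 2775 abundant genes. It was 0.16 for Ccr2, a chemokine receptor, 0.17 for Cd53, a tetraspanin of leukocytes, 0.17 for Ppp2r5c, a phosphatase subunit, 0.20 for Adam10, a membrane protease, and 0.21 for Elmo1, a regulator of cell migration. All points share their libraries and scaling, and the list describes these 8 libraries. The profiles carry no GC offset. With that offset the log2 fold change went from 0.57 to 0.14 for Ccr2, 0.54 to 0.14 for Cd53 and 0.38 to 0.20 for Ppp2r5c. It went from 0.49 to 0.12 for Adam10, 0.48 to 0.37 for Elmo1 and 0.56 to 0.46 for Ets1. Whether the likeness holds with the offset was not tested. Cd53 stood at 2000, 2383, 2176 and 3397 CPM in the wild-type group and 3326, 4411, 3483 and 3285 CPM in knockout, with wild-type replicate 4 again the highest of its group and knockout replicate 2 the highest of all. Among the members Fli1 came nearest, at 0.55 and rank 524, followed by Elf1 at 0.83 and rank 1387.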

How the data were processed

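The authors deposited raw, unnormalized counts of reads by gene symbol for 4 wild-type and 4 knockout libraries of 18837650 to 36436923 counts. The submitters' processing notes list the build mm10 and the tools featureCounts, HISAT2 2.1.0 and edgeR 3.28.1; annotation, strand setting and duplicate handling are not given in the sources used here. A low-input kit was used and no molecular identifiers are mentioned, per the labels' protocols, so reads may not be independent molecules, and counting floors cover counting error only.

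Counts were filtered with filterByExpr (minimum count 10, total 15), scaled by TMM and fitted over all 8489 genes in edgeR 4.0.16 (R 4.3.3) by the robust quasi-likelihood test with no term but genotype, adjusted by Benjamini-Hochberg. SE was obtained by dividing a log2 fold change by the root of its F statistic. CPM uses the TMM effective library size, and log2 CPM a prior count of 2. Transcript length and GC content came from GENCODE M21 (GC known for 96.6% of tested genes), positions and promoters from RefSeq GRCm38.p6. The GC offset was a loess curve per library (span 0.75, genes with a mean log2 CPM above 5), centred so that only the slope with GC changed. DESeq2 1.42.0, limma 3.58.1 voom, other scalings and filters, the replicate block, and left-out libraries were alternatives. The fits were tested on simulated data with known differences, a dispersion of 0.1 for every gene and no library set apart. There edgeR called 25% of the 2-fold and 100% of the 4-fold differences. What share it would call in libraries as uneven as these was not tested.

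The members and gene lists were chosen with earlier results of these data known. All members were named. Also named were family genes with a mean of at least 5 CPM, up to 4 genes by highest mean CPM of each other list, and the 5 genes nearest to Ets1. Family genes under that mean (Spi1, Spib and those at 0) were named as well after their values were seen.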

Additional observations from a re-analysis of the deposited data

Results flagged for a closer look

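In 33 named genes, 66 groups of 4 libraries were searched for a library whose gap to its nearest neighbour was over Dixon's critical share of the group's range, which chance gives in about 1 in 20 groups, and 4 were found. Knockout replicate 4 was far above its group for Gabpa, at 377 CPM, and knockout replicate 2 for Elk4, at 67.6 CPM. Etv5 was set apart in wild-type replicate 4, at 59.996 CPM, and in knockout replicate 3, at 0.996 CPM, where the other knockout libraries were at 0. The causes were not tested.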

How the results depend on the processing

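The count of genes called was 0 in edgeR under each filter, scaling, GC offset, replicate block and left-out library tried. It was 387 in DESeq2 (61 higher, 326 lower) and 4 in limma voom with quality weights. The DESeq2 count is over 10659 genes with an adjusted p, more than the 8489 of the main edgeR fit. Among 8238 of them that passed the edgeR filter, DESeq2 called 118 (19 higher, 99 lower). Ets1, Fli1, Elf1 and Etv3 had positive and Etv6 and Elk3 negative log2 fold changes under every alternative fitted; Ets1 ran from 0.36 to 0.86, and from 0.36 to 0.72 with 1 library left out. With 1 library left out Elf2 ran from -2.42 to 0.13, Elf4 from -0.39 to 0.75, Gabpa from -0.092 to 1.66 and Elk4 from -2.39 to 1.22. Elf2 was -3.74 with the replicate block and -3.89 with the block and GC offset, and turned to 0.030 without wild-type replicate 1, 0.060 without wild-type replicate 3, 0.13 without knockout replicate 2 and 0.13 without knockout replicate 4. Elf4 turned to -0.15 in voom, -0.81 with the replicate block, -0.69 with the block and GC offset and -0.39 without knockout replicate 1. Gabpa was 0.0065 in voom, 0.60 with the block and 0.20 with the block and GC offset, and turned to -0.092 without knockout replicate 4 and -0.12 without both libraries numbered 4. Elk4 turned to -4.25 in voom, -1.95 with the block, -1.99 with the block and GC offset and -2.39 without knockout replicate 2. The cause was not tested. A mean CPM of 50 left 6 members to fit. The replicate numbers did not pair the libraries (correlations of deviations -0.02 to 0.05); the block left 0 genes called and moved the median of all genes from -0.12 to -0.68, with Ets1 at 0.55. Voom moved that median to -0.36 and library size alone to -0.22. Elf2, Elf4, Etv6, Elk3 and Elk4 each had under 10 counts in at least 1 library. Knockout replicate 4 had the lowest total, 18837650 counts, and the most members under 10 counts, 4. Elf4 had 0 counts there and 982 of 21689444 in knockout replicate 2. The part of total depth in the missing transcripts was not tested. The counts by gene list without knockout replicate 4 were added after seeing the data.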
